A study of Mus musculus with 4 samples.

Results

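Antigen presentation and interferon genes are described here as 32 genes listed by symbol. They are 11 genes of the major histocompatibility complex (MHC) class I pathway, 6 of the class II pathway and 15 interferon regulators and interferon-stimulated genes. All 32 were found in the deposited table, which holds 55414 mouse genes. The data were 4 bulk messenger RNA sequencing libraries labelled brain, 2 from wild-type (WT) mice and 2 from mice without Stra8 (knockout, KO). The series design says that both genotypes carried pStra8-GFP, a green fluorescent reporter under the Stra8 promoter, and that GFP-positive hippocampal cells were sorted to ask how Stra8 acts. The labels do not give the age, the sex or the number of animals behind a library, nor how the knockout was made. Whether libraries of the same genotype are different animals is not said, so p-values measure only the spread between these libraries, which may be technical.

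MHC class I molecules stand on nearly all nucleated cells and show peptides from inside the cell to CD8 T cells. Each is a heavy chain bound to B2m, loaded with peptides that the proteasome cuts and that Tap1 and Tap2 carry into the endoplasmic reticulum. Class II molecules are made mainly by professional antigen-presenting cells, with Cd74 as the invariant chain and Ciita as the master transcription factor. Type I interferons act through a complex that holds Stat2 and Irf9 and binds the interferon-stimulated response element (ISRE). The gamma-activated site (GAS) serves the response to interferon gamma. In healthy brain most of these genes are at low levels, with microglia, border macrophages and endothelium as the usual sources.

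The promoter sequences below are shown because they hold the letters of sites that interferon-activated and NF-kappaB factors are known to bind. RefSeq promoter windows (GRCm38.p6, 250 bases before to 50 after each start) were matched by symbol for 24 of the 32 genes. No entry was matched for Cd74, Ciita, H2-Ab1, Ifi27, Nlrc5, Rtp4, Tap2 and Usp18. The ISRE core was searched on both strands as GAAA, any 2 bases and GAAA again, which reads as TTTC, any 2 bases and TTTC on the other strand. It was found in 9 of the 24 (37.5%), against 3.44% of all 32851 windows. The units differ, because a gene counted when any of its windows held the core. The genes were listed by function, interferon response among them, so this share is no result of these libraries. The 9 were B2m, Bst2, Gbp2, H2-T23, Ifit1, Ifit3, Ifitm3, Isg15 and Stat2. In the stretches below, all upstream of the start and read along the gene's strand, capitals mark the ISRE core. Isg15 has 3 overlapping copies, Ifit3 and Ifit1 have 2 each, and Stat2, B2m and H2-T23 have 1 each.
Isg15 (chr4:156200855-156200916, minus strand): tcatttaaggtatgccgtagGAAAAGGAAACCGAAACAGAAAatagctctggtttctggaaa
Ifit3 (chr19:34583353-34583436, plus strand): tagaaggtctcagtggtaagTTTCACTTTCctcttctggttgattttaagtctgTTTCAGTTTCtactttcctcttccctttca
Ifit1 (chr19:34640765-34640833, plus strand): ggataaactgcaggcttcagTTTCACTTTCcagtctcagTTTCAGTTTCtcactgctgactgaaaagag
Stat2 (chr10:128270256-128270305, plus strand): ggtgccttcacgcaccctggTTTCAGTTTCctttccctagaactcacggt
B2m (chr2:122147528-122147577, plus strand): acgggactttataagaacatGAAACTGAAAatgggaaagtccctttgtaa
H2-T23 (chr17:36032796-36032845, minus strand): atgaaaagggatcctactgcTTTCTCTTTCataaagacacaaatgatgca

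H2-K1 and H2-D1, the classical class I heavy chains, have a kappaB site in their promoters, part of the class I enhancer A. It was searched on both strands by the letters capitalised below, which 0.107% of all windows hold, and among the 24 genes only H2-K1 and H2-D1 held it. The stretches below are shown to compare both promoters, with the kappaB site in capitals.
H2-K1 (chr17:34000384-34000473, minus strand): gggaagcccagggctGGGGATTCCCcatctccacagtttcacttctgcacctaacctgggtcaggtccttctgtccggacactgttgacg
H2-D1 (chr17:35262908-35262997, plus strand): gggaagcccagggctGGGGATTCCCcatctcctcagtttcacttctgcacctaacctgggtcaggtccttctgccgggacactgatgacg
Laid side by side without gaps, 86 of these 90 bases were identical (95.6%). The GAS, searched as TTCNNNGAA (its own reverse complement), was in the windows of Bst2, Ifit2, Ifitm3, Irf1 and Psmb8, and in 8.3% of all windows. In Bst2 and Ifitm3 it overlaps an ISRE core. These are matches of letters, and no binding was measured.

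Values per library are given as CPM, the reads of a gene relative to the library's total, scaled with the TMM method of edgeR. Total counts were 71097417 to 82172740 per library. Stra8 had 5 and 1 reads in the WT libraries and 7 and 4 in the KO libraries, too few to test the labels of genotype. Neuronal, myelin, astrocyte, microglial and endothelial markers were all read in every library (Snap25 at 1953 CPM and Mbp at 4821 CPM in WT library 1). Markers of cerebellum and anterior pituitary were read too and were lower in KO, with a median log2 fold change of -1.06 over 8 cerebellar markers and -1.05 over 5 pituitary ones. Choroid plexus markers were also lower in KO, with 6 of 10 called and a median of -0.44. Markers of regions outside the hippocampus were thus read in all 4 libraries, while the design names only hippocampi.

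Of the 32 genes, 2 fell in KO and none rose: the class I heavy chain gene H2-D1 and the interferon signalling gene Stat2 (adjusted p under 0.05 in the edgeR quasi-likelihood test over 21592 genes, n = 2 libraries per genotype). That is 6.25% of them, where 6.53% of all genes tested were called (3.19% lower and 3.35% higher), so the share is that of the background. At an unadjusted p under 0.05 there were 6 (H2-D1, H2-K1, Tap2, Nlrc5, Stat2 and Ifi27), all lower in KO and none higher, against 17.4% of all genes. DESeq2 and limma also called none higher. The libraries of the genotypes did not overlap for 20 of the 32, 14 lower in KO and 6 higher, against 45.7% of all genes tested (22.9% lower and 22.8% higher). All 32 passed the expression filter. The changes were small: the median log2 fold change was -0.19 for class I, 0.026 for class II and -0.063 for the interferon group, beside -0.00038 for all genes tested. With genes under a mean of 1 CPM left out, which removes Nlrc5 and Psmb9, the class I median was -0.079. For 29 of the 32 the 95% interval of the fold change lay within a doubling or halving. The 3 others were Ciita, Nlrc5 and Psmb9, which were read at low levels.

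**Figure D1:**
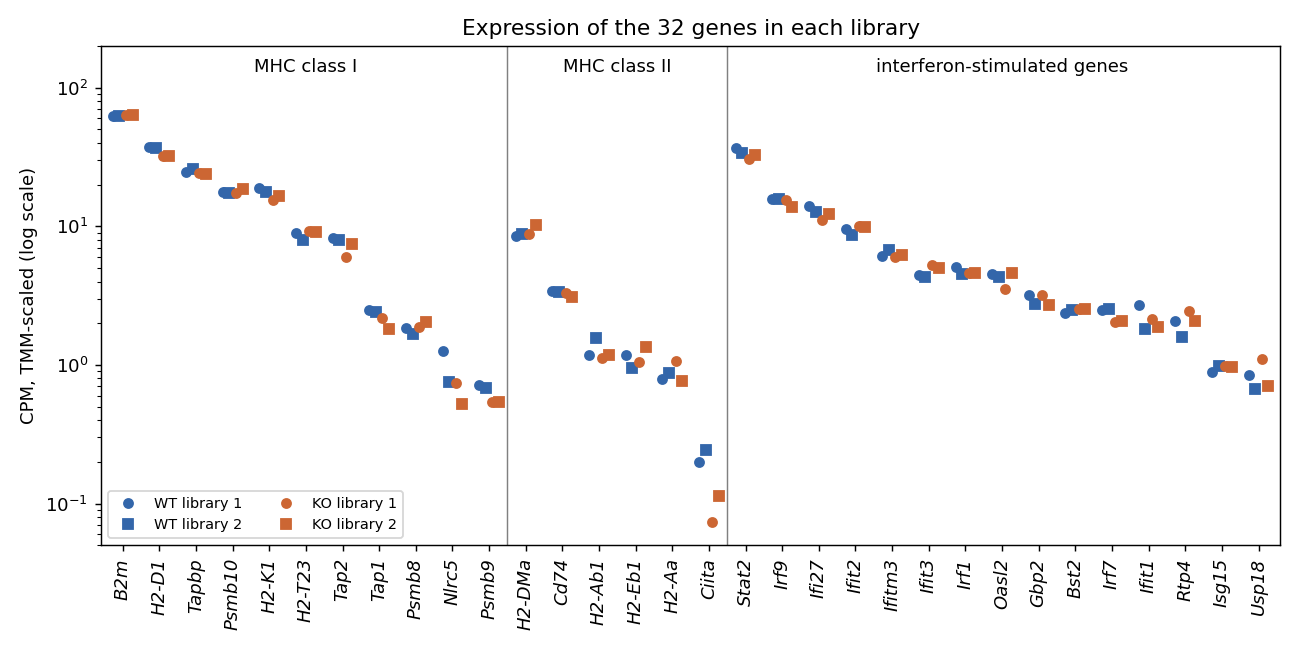
Expression in CPM on a log axis of each of the 32 genes in each library (circles, library 1; squares, library 2; blue, WT; orange, KO), by group and in falling order of mean. For most genes the 4 points lie close together; B2m is the highest at about 62.5 to 63.8 CPM and Ciita the lowest at 0.073 to 0.244 CPM.

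Summed over the 11 class I genes, the level was 184.6 and 181.5 CPM in WT and 174.2 and 176.1 CPM in KO. Both KO sums were below both WT sums. The 15 interferon genes summed to 110.7 and 103.8 CPM in WT and 100.8 and 102 CPM in KO, again with no overlap. The 6 class II genes summed to 15.3 and 15.78 CPM in WT and 15.42 and 16.7 CPM in KO, and there the genotypes overlapped. A sum is carried by the genes with the most reads, so it does not show a fall across a group. Gene by gene, 8 of the 15 interferon genes overlapped, 4 were lower in KO and 3 higher. Of the 11 class I genes 7 were lower, 3 higher and 1 overlapped. Over all genes tested 45.7% did not overlap. No test was made between the groups, because the genes were listed with earlier results of these data known. In bulk samples fewer cells of a type and less RNA per cell cannot be told apart.

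Among the class I heavy chains, H2-D1 (ENSMUSG00000073411) stood at 37.3 and 36.4 CPM in WT and at 32.35 and 32.38 CPM in KO. Both KO values lay below both WT values, by more than the spread within a genotype. The mean fell from 36.9 ± 0.62 to 32.4 ± 0.024 CPM (SD, n = 2 libraries), which is -0.19 on the log2 scale (SE 0.042, 95% interval -0.27 to -0.10, edgeR adjusted p = 0.00502). Without WT library 1 the call was lost, at a log2 fold change of -0.17 (edgeR adjusted p = 0.0628). With any other library left out it held, at an edgeR adjusted p from 0.0109 to 0.0186.

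H2-K1 (ENSMUSG00000061232), the other classical heavy chain, had 18.8 and 17.7 CPM in WT and 15.55 and 16.5 CPM in KO. Its log2 fold change was also -0.19 (SE 0.062, 95% interval -0.31 to -0.058), but it did not pass (edgeR adjusted p = 0.0784). It passed when genes under a mean of 1 CPM were left out of the test (edgeR adjusted p = 0.049, in a range of 0.049 to 0.11 over the settings that kept all libraries). H2-T23, which encodes the nonclassical Qa-1 heavy chain that NK cell receptors read, lay the other way. It had 9.02 and 8.04 CPM in WT and 9.32 and 9.16 CPM in KO, a log2 fold change of 0.12 that did not pass (edgeR adjusted p = 0.545). The heavy chain genes resemble each other, so reads could be split between them. Of the 101-base windows of their annotated transcripts, the length of 1 read, 3.55% in H2-D1, 0.905% in H2-K1 and 3.05% in H2-T23 also occur base for base in transcripts of other genes. H2-D1 shared most with H2-Q1, which had 0.645 and 0.366 CPM in WT and 0.733 and 1.016 CPM in KO.

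B2m (ENSMUSG00000060802), the light chain common to all class I molecules, was the most tightly measured of the group. It had 62.5 and 62.5 CPM in WT and 63.8 and 63.4 CPM in KO. Its log2 fold change was 0.026 with a 95% interval of -0.038 to 0.090 (edgeR adjusted p = 0.756). A fall of the size estimated for H2-D1 lies outside that interval. Per kilobase of exon B2m was also the highest of the 32, at 72.6 CPM per kilobase in WT. H2-D1 came next at 14.3, then Psmb10 at 10.2, while H2-K1 stood at 6.20 and H2-T23 at 2.95 CPM per kilobase.

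The peptide transporter is a pair of Tap1 and Tap2. Tap2 had 8.31 and 7.95 CPM in WT and 6.02 and 7.41 CPM in KO, a log2 fold change of -0.28 (SE 0.097) that did not pass (edgeR adjusted p = 0.0949). KO library 2 lay nearer to WT library 2 than to KO library 1. The log2 fold change was -0.13 without KO library 1 and -0.43 without KO library 2, where it passed (edgeR adjusted p = 0.00486, in a range of 0.00486 to 0.64 over the 4 removals). Tap1 had 2.48 and 2.43 CPM in WT and 2.17 and 1.82 CPM in KO, a log2 fold change of -0.29 with an SE of 0.159 (edgeR adjusted p = 0.366). Both genes were lower in both KO libraries than in either WT library. Tapbp (tapasin), which bridges the transporter to the heavy chain, had 24.8 and 26.1 CPM in WT and 24.4 and 23.8 CPM in KO, with a log2 fold change of -0.079 (edgeR adjusted p = 0.478).

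The immunoproteasome subunits Psmb8, Psmb9 and Psmb10 replace the catalytic subunits of the standard proteasome and favour peptides that class I binds. None passed. Psmb10 had 17.6 and 17.3 CPM in WT and 17.4 and 18.5 CPM in KO. Psmb8 had 1.84 and 1.67 CPM in WT and 1.88 and 2.03 CPM in KO. Psmb9 had 0.719 and 0.683 CPM in WT and 0.537 and 0.536 CPM in KO. Their log2 fold changes were 0.041, 0.16 and -0.38, so the subunits did not lie to one side, and edgeR adjusted p ranged from 0.591 to 0.815.

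Nlrc5 is the transcriptional activator of class I genes. It had 1.26 CPM in WT library 1 and 0.756 in WT library 2, and 0.745 and 0.522 CPM in KO libraries 1 and 2. WT library 1 stood alone, and WT library 2 and KO library 1 were nearly level. The log2 fold change was -0.66 (SE 0.295, 95% interval -1.27 to -0.052, edgeR adjusted p = 0.236). Leaving out WT library 1 gave -0.24, and leaving out WT library 2 gave -0.99, where it passed (edgeR adjusted p = 0.0442, in a range of 0.0442 to 0.865 over the 4 removals). With 37 to 102 reads a library, the value rests on few reads.

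**Figure D2:**
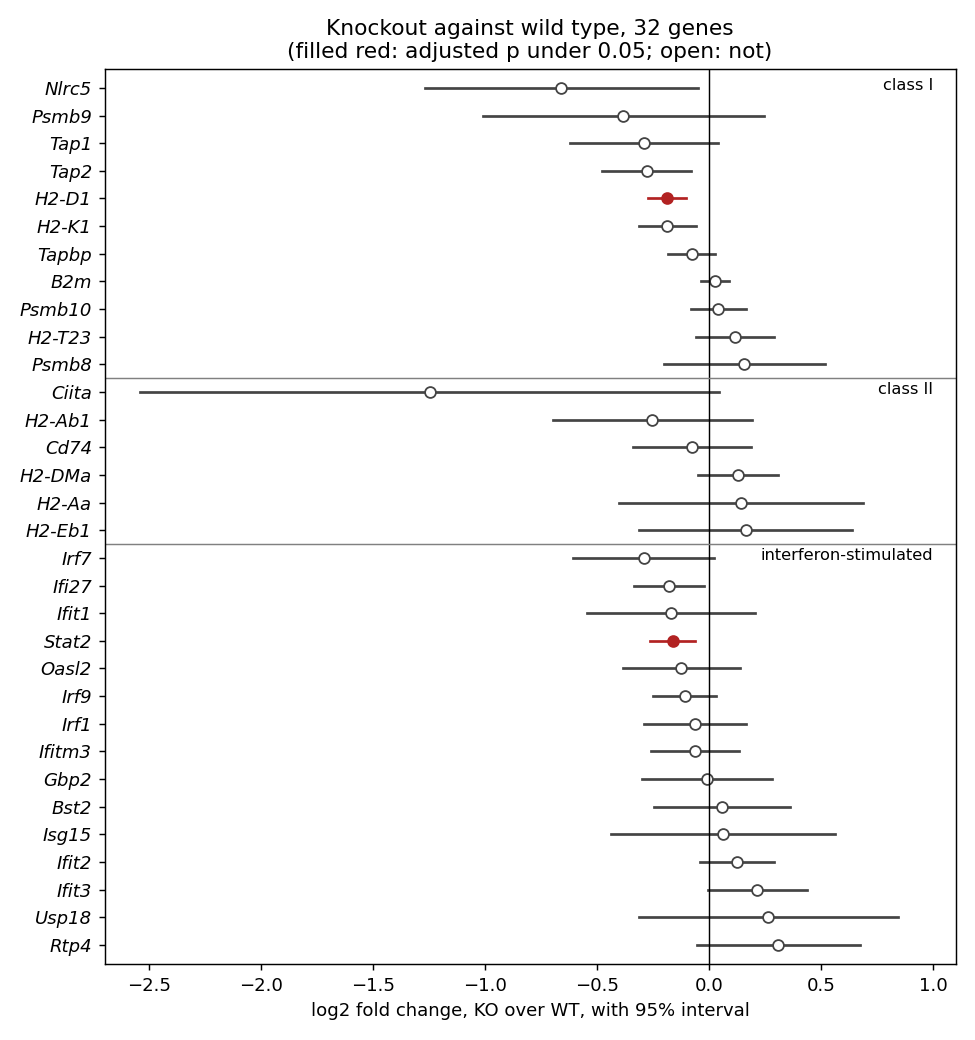
Log2 fold change of KO over WT for each of the 32 genes (points) with its 95% interval (lines), by group; filled red marks an edgeR adjusted p under 0.05. H2-D1 at -0.19 and Stat2 at -0.16 are the filled points, and Ciita and Psmb9 have the widest intervals.

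In the class II pathway none of the 6 genes passed (edgeR quasi-likelihood test), none had an unadjusted p under 0.05, and 3 estimates were positive and 3 negative. Cd74, the invariant chain that guides class II molecules to the endosome, had 3.40 and 3.37 CPM in WT and 3.32 and 3.08 CPM in KO (log2 fold change -0.077, SE 0.128). H2-DMa, a chain of the molecule that swaps the invariant chain fragment for peptide, had 8.53 and 8.78 CPM in WT and 8.77 and 10.2 CPM in KO (log2 fold change 0.13, SE 0.086). These genes were higher than the class II chains themselves also per length, at 2.01 and 2.51 CPM per kilobase in WT.

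The class II chain genes were near 1 CPM. H2-Aa had 0.793 and 0.878 CPM in WT and 1.07 and 0.762 CPM in KO. H2-Ab1 had 1.19 and 1.56 CPM in WT and 1.12 and 1.19 CPM in KO. H2-Eb1 had 1.19 and 0.951 CPM in WT and 1.05 and 1.35 CPM in KO. Their log2 fold changes were 0.14, -0.25 and 0.16, each with an SE over 0.2, so only large changes were detectable at this depth. The alpha chain and the beta chains did not lie to one side.

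Ciita was the lowest of the 32, with 16 and 20 reads in the WT libraries and 6 and 8 in the KO libraries. These are 0.198 and 0.244 CPM in WT and 0.073 and 0.113 CPM in KO, and the genotypes did not overlap. The log2 fold change of -1.25 had a 95% interval of -2.54 to 0.045 and did not pass (edgeR adjusted p = 0.312). In each library 72.8% to 74.3% of the small counts, those of 1 to 20 reads, were even, as when each mate adds 1 read, so fewer fragments than reads stand behind these values. The median of the class II group was 0.026 with all libraries and ranged from -0.13 to 0.0018 with 1 library left out, so its sign was not fixed. With counts halved, where Ciita fell below the filter, it was 0.127.

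Among the interferon signalling genes, Stat2 (ENSMUSG00000040033), which with Irf9 is part of the factor that binds the ISRE, was lower. Its level was 36.6 and 34.1 CPM in WT and 30.4 and 32.8 CPM in KO. The genotypes did not overlap, but the gap between KO library 2 and WT library 2 was smaller than the spread within either genotype. The mean fell from 35.3 ± 1.79 to 31.6 ± 1.72 CPM (SD, n = 2 libraries), which is -0.16 on the log2 scale (SE 0.048, 95% interval -0.26 to -0.065, edgeR adjusted p = 0.0384). The call was lost without WT library 1 (log2 fold change -0.11, edgeR adjusted p = 0.399) and without KO library 1 (-0.11, edgeR adjusted p = 0.333). Without WT library 2 or KO library 2 it held, at an edgeR adjusted p of 0.00761 and 0.0027.

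Irf9, the DNA-binding partner of Stat2, had 15.7 and 15.7 CPM in WT and 15.4 and 13.7 CPM in KO (log2 fold change -0.11, SE 0.067, edgeR adjusted p = 0.444). Irf7, the factor that amplifies interferon alpha genes, had 2.50 and 2.54 CPM in WT and 2.05 and 2.06 CPM in KO. The replicates of Irf7 were close and the genotypes apart, but at 146 to 208 reads a library the log2 fold change of -0.29 (SE 0.153) did not pass (edgeR adjusted p = 0.337). Irf1, which acts in the interferon gamma response and on class I genes, had 5.09 and 4.52 CPM in WT and 4.59 and 4.60 CPM in KO (log2 fold change -0.065, edgeR adjusted p = 0.85).

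**Figure D3:**
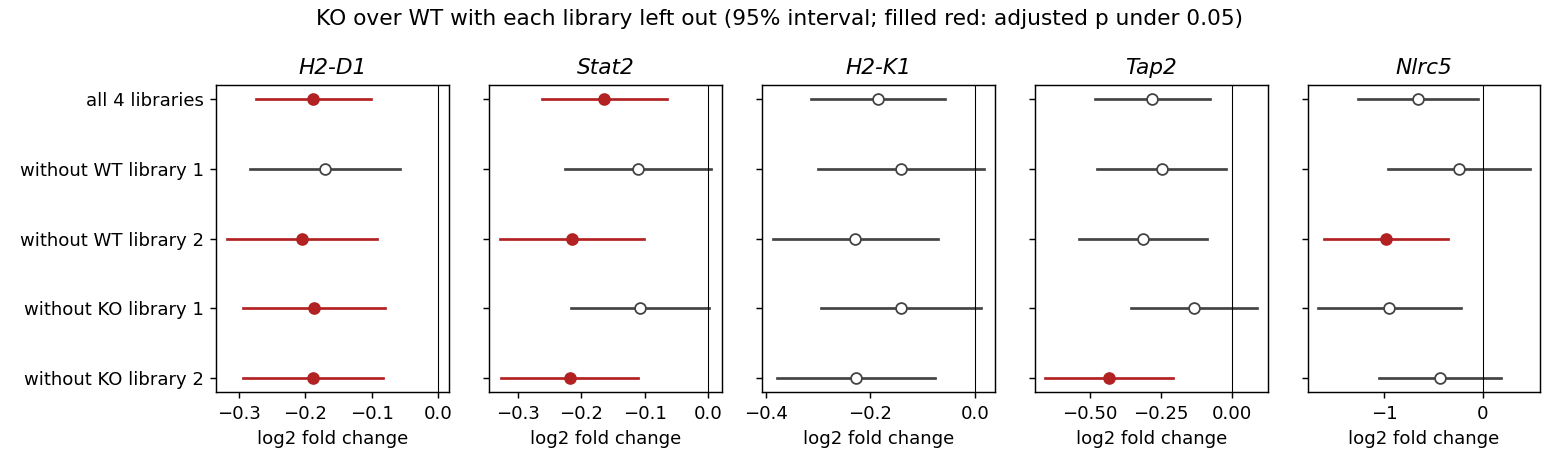
Log2 fold change of KO over WT with its 95% interval for H2-D1, Stat2, H2-K1, Tap2 and Nlrc5, with all 4 libraries and with each left out in turn (each panel has its own horizontal scale); filled red marks an edgeR adjusted p under 0.05. All points lie below 0, and the calls of H2-D1 and Stat2 are absent without WT library 1.

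None of the 11 downstream interferon effectors passed (edgeR), and only Ifi27 had an unadjusted p under 0.05. Of their estimates 6 were positive and 5 negative. The Ifit genes encode proteins that bind viral RNA and block its translation. Ifit1 had 2.73 and 1.83 CPM in WT and 2.15 and 1.89 CPM in KO. Ifit2 had 9.56 and 8.71 CPM in WT and 10.1 and 9.81 CPM in KO. Ifit3 had 4.49 and 4.34 CPM in WT and 5.25 and 4.98 CPM in KO. For Ifit2 and Ifit3 both KO values lay above both WT values, while WT library 1 was the highest for Ifit1. The log2 fold changes were -0.17, 0.12 and 0.21, with edgeR adjusted p from 0.31 to 0.724. Ifit3 has a close copy, Ifit3b, and 31.3% of the 101-base windows of its transcripts also occur in that gene. Ifit3b itself had 3.05 and 2.39 CPM in WT and 2.48 and 2.12 CPM in KO (log2 fold change -0.24, edgeR adjusted p = 0.494), so the values of the pair are uncertain.

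Isg15, the ubiquitin-like protein that interferon induces, had 0.8925 and 0.9754 CPM in WT and 0.9895 and 0.9599 CPM in KO. Its promoter holds the 3 overlapping ISRE cores printed above, and its log2 fold change was 0.062 (SE 0.242, 95% interval -0.44 to 0.56). Usp18, which removes Isg15 from proteins and dampens the type I receptor, had 0.843 and 0.671 CPM in WT and 1.099 and 0.706 CPM in KO. Oasl2, a relative of the enzymes that sense double-stranded RNA, had 4.54 and 4.29 CPM in WT and 3.53 and 4.60 CPM in KO. For these 3 genes the genotypes overlapped.

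Rtp4, a receptor transporting protein that interferon induces, had 2.07 and 1.60 CPM in WT and 2.47 and 2.06 CPM in KO, with a log2 fold change of 0.31 and an SE of 0.176 (edgeR adjusted p = 0.392). It was the highest estimate of the 32. Ifi27, a small interferon-inducible membrane protein, had 14.03 and 12.6 CPM in WT and 11.2 and 12.35 CPM in KO, with a log2 fold change of -0.18 and an SE of 0.075 (edgeR adjusted p = 0.198). For Ifi27 the genotypes did not overlap, but KO library 2 and WT library 2 were close. Of the transcripts of Rtp4, 9.23% of the 101-base windows also occur in the gene model Gm45338.

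Bst2 (tetherin) holds budding virus at the cell surface, and Ifitm3 blocks viral entry from endosomes. Bst2 had 2.37 and 2.49 CPM in WT and 2.53 and 2.53 CPM in KO (log2 fold change 0.058, SE 0.146). Ifitm3 had 6.07 and 6.73 CPM in WT and 6.01 and 6.25 CPM in KO (log2 fold change -0.063, SE 0.096). Gbp2, a guanylate-binding protein that interferon gamma induces, had 3.19 and 2.74 CPM in WT and 3.18 and 2.70 CPM in KO (log2 fold change -0.0096, SE 0.141). In Gbp2 library 1 was higher than library 2 in both genotypes. Per length the highest of the interferon group in WT were Ifitm3 and Ifi27, at 9.44 and 9.08 CPM per kilobase, and Usp18 was the lowest at 0.271.

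Of the 9 genes with the searched ISRE letters in the promoter window, 5 estimates were positive and 4 negative, the median log2 fold change was 0.026, and 1 (Stat2) was called. Over the 15 matched genes without these exact letters, H2-K1 and H2-D1 among them, the median was -0.079. The search took exact letters only, so a gene with a looser form of the site counts as without it. The difference was not tested. H2-K1 and H2-D1, whose kappaB stretches were nearly identical in sequence, had nearly the same log2 fold change of -0.19. H2-K1 did not pass (edgeR adjusted p = 0.0784). H2-T22, whose promoter is not described here, also stood at -0.19 and did not pass. Whether the kappaB site has a part in these values was not tested.

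The values of the interferon group also turned on single libraries. WT library 1 was the highest of the 4 for 13 of the 32 genes, or 40.6%, against 25.2% of all genes tested. For 6 of the 15 interferon genes and 6 of the 11 class I genes it was the highest, and KO library 1 was the highest for as many of the interferon genes (6 of 15). Without WT library 1 the median of the interferon group was 0.024 instead of -0.063, that of class I was -0.14, and edgeR called neither H2-D1 nor Stat2. The libraries of 1 genotype differed by a median of 0.115 (WT) and 0.111 (KO) on the log2 scale over the 32 genes, and the genotypes by 0.16. For all genes tested these medians were 0.081, 0.084 and 0.087.

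The ligands of the pathway were close to absent. Of 10 interferon genes, 8 had 0 reads in all 4 libraries (Ifnb1, Ifna1, Ifna2, Ifna4, Ifna5, Ifnl2, Ifnl3 and Ifnk), which allows up to 0.0365 to 0.0422 CPM by library, for counting error only and with reads taken as independent. Where both mates were counted the limit is higher. Ifng had 2 reads in KO library 2, and Ifne 4 reads in WT library 1. None could be tested. The receptors were read in all libraries: Ifnar1 had 47.6 and 43.8 CPM in WT and 46.3 and 46.1 CPM in KO, with a log2 fold change of 0.016 and a 95% interval of -0.067 to 0.099. Of 17 receptor and signalling genes none passed, at a median of -0.013, and 1 had an unadjusted p under 0.05. That was Ifnlr1, the interferon lambda receptor, at 0.496 and 0.341 CPM in WT and 0.11 and 0.296 CPM in KO (edgeR adjusted p = 0.261).

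Over the wider pathway, 155 genes in 8 lists, 135 were tested, 2 rose and 1 fell, which is 2.22%, beside 6.53% of all genes. Ly6e, an interferon-inducible surface protein, rose from 146.6 ± 0.189 to 158.2 ± 2.65 CPM (SD, n = 2 libraries), by 0.11 on the log2 scale with an SE of 0.021 (edgeR adjusted p = 0.00137). It was the only 1 of 52 other interferon-stimulated genes to pass, and their median was -0.031. Calr (calreticulin), a chaperone of class I folding and of many other proteins, rose from a mean of 506.5 to 527.4 CPM, by 0.058 on the log2 scale with an SE of 0.014. Lnpep, an aminopeptidase that trims peptides and has other roles in neurons, fell from a mean of 98.8 to 91.2 CPM, by 0.11 on the log2 scale with an SE of 0.026.

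In the remaining lists no gene passed in edgeR. At an unadjusted p under 0.05 there were 3 of 12 class I relatives and 3 of 12 guanylate-binding proteins and GTPases. No class II or sensing gene was among them, and the share over all genes tested was 17.4%. Of these class I relatives H2-Q1 was higher in KO (log2 fold change 0.79) and the others were lower. The guanylate-binding proteins and GTPases among them were all lower. Of 12 further class I heavy chains and relatives tested, 8 estimates were negative and the median was -0.16. The smallest p was that of H2-T22, at 13.6 and 13.4 CPM in WT and 11.7 and 11.9 CPM in KO (log2 fold change -0.19, SE 0.069, edgeR adjusted p = 0.109). Of 13 further class II genes, 10 estimates were positive and the median was 0.027, with the smallest p for Cd80, a costimulatory ligand, at 0.473 CPM in WT and 0.627 CPM in KO (edgeR adjusted p = 0.618). Of 17 nucleic acid sensing genes, 12 estimates were negative and the median was -0.090. Tlr7, a sensor of single-stranded RNA, had 3.21 and 3.10 CPM in WT and 2.49 and 2.75 CPM in KO (log2 fold change -0.27, edgeR adjusted p = 0.323). Of 12 guanylate-binding proteins and immunity-related GTPases tested, 8 estimates were negative and the median was -0.089. Tgtp2 had 0.558 and 0.476 CPM in WT and 0.159 and 0.268 CPM in KO (log2 fold change -1.28, SE 0.434, edgeR adjusted p = 0.0848).

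**Figure D4:**
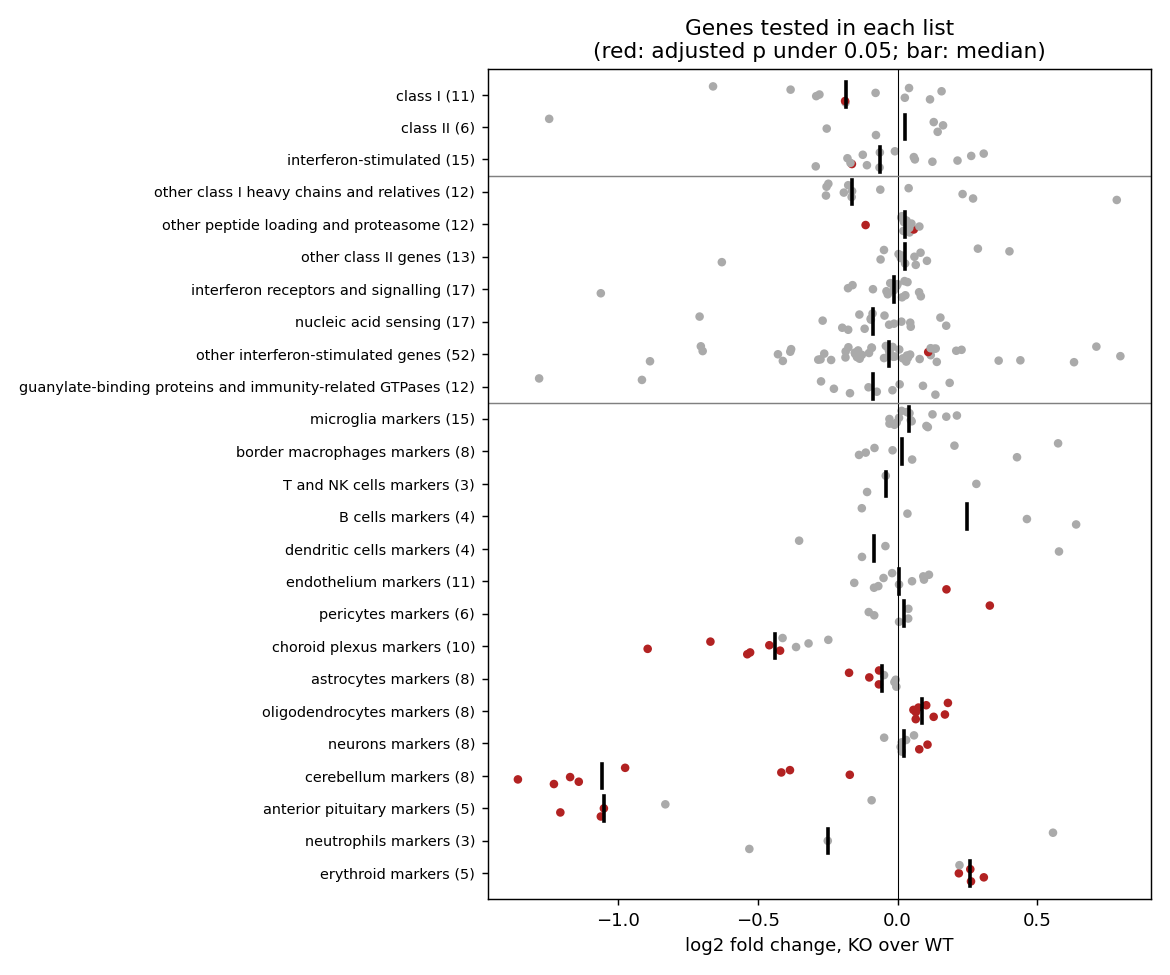
Log2 fold change of KO over WT for every tested gene of the 3 groups, of the wider pathway lists and of the cell type marker lists, with the number tested in brackets; red points have an edgeR adjusted p under 0.05 and bars are medians. The class I, class II and interferon medians of -0.19, 0.026 and -0.063 lie closer to 0 than those of the choroid plexus, cerebellar and pituitary markers.

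The cells that usually carry these genes were compared through their markers. None of the 15 microglial markers passed in edgeR, and 11 of the 15 estimates were positive. At an unadjusted edgeR p under 0.05 there were 3 (Cx3cr1, Tyrobp and Fcrls), all higher in KO, beside 17.4% of all genes tested. The median log2 fold change of the 15 was 0.043, and their sum was 387.9 CPM in both WT libraries and 393.6 to 397.5 CPM in KO. None of the 8 border macrophage markers passed (none had an unadjusted p under 0.05), with sums from 18.03 to 18.6 CPM. Of 11 endothelial markers Cldn5 rose and none fell (9.09% called, beside 6.53% of all genes tested). An unadjusted edgeR p under 0.05 was found for 3, Cldn5 higher and Ly6c1 and Flt1 lower in KO (-0.16 and -0.069 on the log2 scale). The median of the 11 was 0.0052, and the sums were 307.7 to 316.2 CPM in WT and 311.3 to 312.2 CPM in KO. Of 6 pericyte markers Anpep rose and the other 5 were not called (16.7% called). Of the 6 estimates 4 were positive and 2 negative, with a median of 0.022. Lymphocyte markers were mixed. Cd3g had 0 reads in all libraries, 3 of 11 T and NK cell markers could be tested, and the 11 summed to between 4.87 and 6.22 CPM. The highest of the 11 was Trbc2, at 2.59 and 3.16 CPM in WT and 3.65 and 3.33 CPM in KO. The 6 B cell markers summed to 16.7 to 18.7 CPM, most of it Ighm. Which cells gave the reads of Trbc2 and Ighm was not tested. Clec9a, a dendritic cell marker, was at 0 throughout, and the 6 dendritic markers summed to 22.8 to 25.2 CPM. The 6 neutrophil markers summed to less than 1 CPM in each library.

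In each list that follows, 25% to 100% of the markers tested were called, beside 6.53% of all genes tested. Of 10 choroid plexus markers 6 fell and none rose, and their sum went from 643.9 to 644.8 CPM in WT to 442 to 449.2 CPM in KO. Of 8 cerebellar markers all 8 fell, with sums of 421.6 to 426.2 CPM in WT and 288.7 to 293.8 CPM in KO. Of 8 astrocyte markers 4 fell, of 8 oligodendrocyte markers all 8 rose, and of 8 neuronal markers 2 rose. Their median log2 fold changes were small, at -0.057, 0.089 and 0.023, beside 0.043 for the microglial markers. Of 5 erythroid markers 4 rose and of 5 pituitary markers tested 3 fell. The part of these cells in the values of H2-D1 and Stat2 was not tested.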

How the data were processed

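The authors deposited 1 table of raw counts, as reads for each Ensembl gene. The submitters' processing notes name GRCm39, STAR 2.6.1c, FastQC, DESeq2 and featureCounts without their roles. No source used here gives the annotation, the strand setting or what was done with reads that map more than once. Columns were matched to samples by name. Symbols came from GENCODE M21, which matched 52081 of 55414 identifiers; Rigi and Sting1 were matched through an older symbol.

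In R 4.3.3, edgeR 4.0.16 was run on the counts: filterByExpr by genotype (minimum count 10, 21592 genes kept), TMM, glmQLFit and glmQLFTest on genotype, Benjamini-Hochberg adjustment, calls at 0.05. The SE is the log2 fold change over the square root of F. The procedure was run on simulated data, and the recovery required there concerned changes larger than those of H2-D1 and Stat2. CPM per kilobase uses exon lengths of GENCODE M21 (GRCm38). Alternatives used limma 3.58.1, DESeq2 1.42.0, other scalings, filters and dispersions, halved counts, a replicate block and each library left out. Members and lists were chosen with earlier results of these data known. Full values are given for members called or at 1 CPM or more and for others where described; from pathway lists, called genes or else the smallest p. Ifnar1, H2-Q1, the marker genes named, Ifit3b, the promoter motifs and the chromosome 17 interval were chosen after values were seen. Intervals cover the spread of these libraries, and zero-read limits cover counting error only.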

Additional observations from a re-analysis of the deposited data

How the results depend on the processing

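All genes called numbered 1411 in the fit described and 1064 to 1955 over the alternatives, and no alternative called any of the 32 genes higher. The number called lower was 2 or 3 with other scalings, filters and tests, 4 at an adjusted p under 0.1 (H2-K1 and Tap2 added), and 0 to 3 with 1 library left out. Pathway genes called, 3 in all, were 5 without a filter, 8 at an adjusted p under 0.1, and 2 to 5 with 1 library left out. The class I median was -0.079 when genes under 1 CPM were left out, which removes Nlrc5 and Psmb9. With 1 library left out, the interferon median ranged from -0.11 to 0.024. Single genes that changed sign when 1 library was left out, none of them called, were Psmb10 (-0.0026 to 0.087), H2-Aa (-0.13 to 0.36), H2-Eb1 (-0.025 to 0.34), Irf1 (-0.15 to 0.024), Ifit1 (-0.43 to 0.15), Usp18 (-0.0997 to 0.54), Oasl2 (-0.32 to 0.0602), Ifitm3 (-0.13 to 0.013) and Gbp2 (-0.14 to 0.10). With counts halved Gbp2 was at 0.0033. The cause was not tested. Library size alone moved the median of all genes to -0.0099.

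Replicate numbers are shared between genotypes, but no label ties them to a common animal or day, and over 15156 genes the deviations of WT and KO library 1 from their genotype means correlated at 0.0503. DESeq2 gave no adjusted p for Ciita, H2-Aa, H2-Ab1, H2-Eb1, Isg15, Nlrc5, Psmb9 and Usp18. With the replicate block, 2 of the 32 genes were called lower and 0 higher. When a library is left out, the spread of the other genotype is taken to hold for the lone library. Genes under about 1 CPM had too few reads for small changes to be detectable.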

Other observations

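Of the 12 genes described that lie on chromosome 17, 11 fall in the stretch of the MHC from H2-K1 to H2-T23 in RefSeq gene order, together with genes of other functions. Of 95 other genes tested in that stretch, 5 fell and 3 rose, beside 6.53% called among all genes, and their median log2 fold change was -0.0041. The 5 that fell were Tnxb, an extracellular matrix protein (log2 fold change -0.40, edgeR adjusted p = 0.00143), Hspa1b, an inducible heat shock chaperone (-0.33), Notch4, an endothelial Notch receptor (-0.27), Vwa7 (-0.59) and Prrt1, an AMPA receptor partner (-0.057). The 3 that rose were Tubb5, a tubulin (0.093), Gnl1 (0.11) and Abcf1 (0.086). H2-D1 was the only 1 of the 11 to pass.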
